A study of Mus musculus with 8 samples.

Results

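The genes of peroxisomal fatty acid oxidation described here were 9 genes, Ehhadh, Acaa1a, Acaa1b, Hsd17b4, Scp2, Abcd2, Abcd3, Pex11a and Crot. They were chosen by symbol, with earlier results of these data known, from the 52636 genes counted in the livers of AAV8-AGXT and AAV8-GFP mice. The RNA came from the whole liver of 8 male C57BL/6J mice, 4 per group, with 1 library per mouse. At 7 weeks of age the mice were injected intraperitoneally with AAV8 that carried either GFP or human AGXT behind TBG, a promoter active in hepatocytes, so the transgene was driven in 1 cell type of a mixed tissue. Both groups ate the same MASH diet, rich in fat, fructose and cholesterol, from 8 weeks of age for 24 weeks, so neither chow-fed nor uninjected mice enter the comparison. The question of the comparison was how the liver transcriptome of mice with MASH (metabolic dysfunction-associated steatohepatitis) differs when hepatocytes are given more AGXT, the peroxisomal enzyme that converts glyoxylate to glycine. Human AGXT itself was not analysed here.

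Peroxisomes shorten very-long-chain, branched and dicarboxylic fatty acids, which mitochondria handle poorly, and pass the shortened acyl groups on. Fatty acids enter as CoA esters through half-transporters of the ABCD family, are oxidized in a first step that yields hydrogen peroxide, are hydrated and dehydrogenated by a bifunctional enzyme (EHHADH or HSD17B4), are cleaved by a thiolase (ACAA1 or SCP2), and leave as carnitine esters or free acids. In rodent liver, many genes of this pathway are known targets of the nuclear receptor PPARα, which binds DNA as a heterodimer with RXR at a direct repeat of a hexamer with 1 base between the repeats.

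The bases just before a RefSeq transcription start are shown for the pair of genes that passed the test below, Ehhadh and Abcd3, and for the near-identical thiolase genes Acaa1a and Acaa1b, whose flanks differ. Each is a stretch of 130 bases from RefSeq (GRCm38.p6), written 5′ to 3′ on the gene's strand, at chr16:21787835-21787964 (minus strand), chr3:121815303-121815432 (minus), chr9:119341164-119341293 (plus) and chr9:119157094-119157223 (minus). Capitals mark exact matches, on either strand, to the GC box GGGCGG or to CCAAT.
Ehhadh: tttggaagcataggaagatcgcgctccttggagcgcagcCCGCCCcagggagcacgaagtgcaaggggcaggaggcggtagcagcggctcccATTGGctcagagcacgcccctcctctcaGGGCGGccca
Abcd3: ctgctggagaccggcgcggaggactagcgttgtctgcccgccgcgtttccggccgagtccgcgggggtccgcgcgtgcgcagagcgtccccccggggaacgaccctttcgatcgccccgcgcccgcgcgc
Acaa1a: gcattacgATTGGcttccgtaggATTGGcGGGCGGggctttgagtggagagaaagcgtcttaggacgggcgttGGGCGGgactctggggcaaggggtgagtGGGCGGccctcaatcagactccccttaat
Acaa1b: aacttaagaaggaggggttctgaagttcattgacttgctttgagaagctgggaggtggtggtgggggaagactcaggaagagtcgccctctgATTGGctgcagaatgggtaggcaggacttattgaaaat
The Abcd3 stretch held neither motif and was rich in CpG, with 25 CpG dinucleotides and 76.9% GC, against 9 CpG and 66.9% GC for Ehhadh. Acaa1a had 9 CpG and 3 GC boxes in the bases shown, whereas Acaa1b had 1 CpG and no GC box. RefSeq windows, which run from 250 bases before to 50 after a start, were searched for 7 of the 9 genes (8 windows, since Abcd3 had 2). No window was available for Abcd2, and none was searched for Hsd17b4. No window of these 7 genes held the direct repeat AGGTCANAGGTCA on either strand, even with 2 mismatches allowed, which 3.86% of all 32851 windows of the same length did. The single hexamer AGGTCA, present in 16.3% of all windows, was found only in that of Scp2. The RefSeq starts used for Acaa1a, Scp2 and Crot, and 1 of the 2 for Abcd3, lie inside the gene spans given below, not at their ends. That of Acaa1b lies at the end of its span, so the Acaa1a and Acaa1b stretches are not from matching positions. GC boxes were in the windows of 5 of the 7 genes searched (35.7% of all windows) and CCAAT in those of 4 (37.4%), while TATAAA was in none (13.6%). Because few windows of any gene hold the direct repeat, its absence from these 8 windows does not set the genes apart. Bases outside the windows were not searched. These matches describe the letters in a short window and no binding was measured.

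AAV8-AGXT livers had more Ehhadh and Abcd3 mRNA than AAV8-GFP livers, and these were the only 2 of the 9 genes that passed edgeR's quasi-likelihood test at an adjusted p under 0.05. All 9 genes were among the 15248 genes with enough counts to be tested, of which 2.45% were called higher and 1.90% lower in AAV8-AGXT mice. None of the 9 was called lower, and 7 were not called. In 5 of the 9 genes, Ehhadh, Acaa1a, Hsd17b4, Scp2 and Abcd3, every AAV8-AGXT mouse lay above every AAV8-GFP mouse, against 8.93% of all tested genes. The reverse was seen in none of the 9 and in 7.63% of all tested genes. Because the 9 genes were chosen with earlier results of these data known, these shares are a description only. The median log2 fold change of the 9 genes was 0.63, beside 0.02 for all tested genes, whose 5th and 95th percentiles were -0.99 and 0.66. The 8 hepatocyte markers all had estimates above 0, against 52.3% of all tested genes. Their median log2 fold change was 0.46, and 1 of them was called. Values on a scale set by these markers are given further on. Leaving out 1 mouse at a time left 0 to 3 of the 9 genes called, and the number of all genes called higher moved as well. None of the 9 was called without mouse 311, 314, 319, 308 or 315, when 2, 11, 12, 86 and 304 genes in all were called higher. Only 1 gene of the 9 was called without 303 or 316 (114 and 226 in all), and 3 were called without 309 (379 in all).

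DESeq2's Wald test, which the authors also used, called 5 of the 9 genes higher at an adjusted p under 0.05, against 7.08% of all genes. Beside Ehhadh (adjusted p = 9.46e-05) and Abcd3 (0.000189), these were Scp2 (0.000767), Hsd17b4 (0.00176) and Acaa1a (0.00534), the same 5 genes whose groups did not overlap. The DESeq2 adjusted p was 0.0525 for Acaa1b, 0.0743 for Pex11a, 0.349 for Crot and 0.260 for Abcd2.

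Levels below are in CPM (read pairs on a gene relative to all pairs on genes in that library), scaled with edgeR's TMM factors, and log2 fold changes are AAV8-AGXT over AAV8-GFP. The libraries held 17095433 to 28780140 pairs on genes, so that the spread between mice, with a common biological coefficient of variation of 23.3%, set the precision. AAV8-AGXT mouse 308 had the lowest share of tallied read pairs on genes, 56.3%, against 62.4% to 69.1% in the other mice, and the lowest TMM factor, 0.83.

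**Figure D1:**
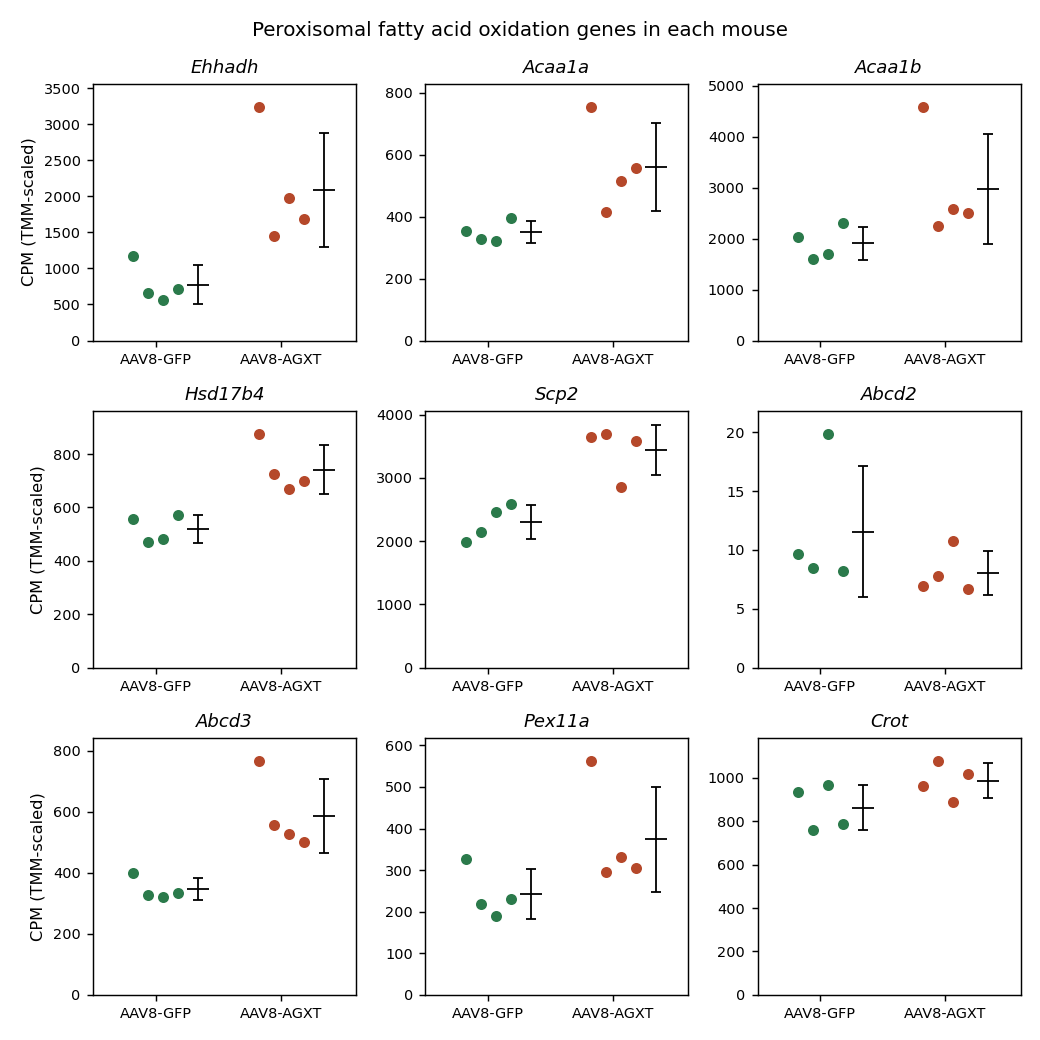
Level of each of the 9 genes in each mouse, in TMM-scaled CPM on linear axes that start at 0. Points are mice, green for AAV8-GFP and red for AAV8-AGXT, and the bar beside them is the mean ± SD (n = 4). In Ehhadh, Acaa1a, Hsd17b4, Scp2 and Abcd3 the groups do not overlap, in Abcd2 the highest point is the AAV8-GFP mouse at 19.8 CPM, and in Pex11a and Acaa1b mouse 308 stands above the other AAV8-AGXT mice.

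Ehhadh (ENSMUSG00000022853, chromosome 16, 21761287 to 21787807, minus strand) encodes the L-bifunctional enzyme, which hydrates enoyl-CoA and dehydrogenates the product, and is needed for the oxidation of dicarboxylic acids. It was at 1169, 652, 561 and 712 CPM in AAV8-GFP mice 303, 311, 314 and 315, and at 3239, 1454, 1972 and 1683 CPM in AAV8-AGXT mice 308, 309, 316 and 319. The groups did not overlap, although mouse 303 came near the lowest AAV8-AGXT mouse. The means were 773 ± 271 and 2087 ± 796 CPM (SD, n = 4 each), a ratio of 2.70 and a log2 fold change of 1.43 ± 0.30 (SE, 95% interval 0.76 to 2.10, edgeR adjusted p = 0.0376). Ehhadh stood at place 113 of all tested genes by log2 fold change. The estimate moved between 1.12 and 1.70 as each mouse was left out, and the edgeR adjusted p was 0.0437 without 303, 0.143 without 311, 0.100 without 314, 0.0563 without 315, 0.0656 without 308, 0.0391 without 309, 0.0536 without 316 and 0.0854 without 319, so that 6 of the 8 omissions ended the call. Without mouse 311 only 2 of 15343 genes in all were called higher.

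Hsd17b4 (ENSMUSG00000024507, chromosome 18, 50128201 to 50196269, plus strand) encodes the D-bifunctional protein, which carries out the same steps on very-long-chain and branched substrates. Its levels were 556, 469, 481 and 571 CPM in the AAV8-GFP mice and 875, 724, 668 and 700 CPM in the AAV8-AGXT mice, in the order given for Ehhadh. These groups did not overlap. The means were 519 ± 51.6 and 742 ± 91.4 CPM (SD, n = 4 each), and the log2 fold change of 0.51 ± 0.14 (SE, 95% interval 0.21 to 0.82) missed the threshold in edgeR (adjusted p = 0.0619). Both bifunctional enzymes thus had separate groups, with a log2 fold change that was larger in Ehhadh, but the difference between the genes was not tested.

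Abcd3 (ENSMUSG00000028127, chromosome 3, 121758774 to 121815302, minus strand) encodes PMP70, an abundant membrane half-transporter for dicarboxylic, branched and bile acid intermediates. It was at 399, 328, 321 and 335 CPM in the AAV8-GFP mice and at 765, 558, 526 and 500 CPM in the AAV8-AGXT mice. Every AAV8-AGXT mouse lay above mouse 303, the highest of the controls. The means were 346 ± 36.1 and 587 ± 121 CPM (SD, n = 4 each), a ratio of 1.70 and a log2 fold change of 0.76 ± 0.16 (SE, 95% interval 0.41 to 1.12, edgeR adjusted p = 0.0376). Leaving out a mouse gave log2 fold changes of 0.60 to 0.84, and the edgeR adjusted p was 0.0567 without 303, 0.142 without 311, 0.100 without 314, 0.0545 without 315, 0.0630 without 308, 0.0479 without 309, 0.0486 without 316 and 0.0822 without 319. The call was lost in 6 of these 8 fits, and also with total counts as the scale (adjusted p = 0.0513).

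Abcd2 (ENSMUSG00000055782, chromosome 15, 91145871 to 91191799, minus strand) encodes a related half-transporter for very-long-chain and polyunsaturated acyl-CoA and had the lowest level per kb of mRNA of the 9 genes. Its levels were 9.64, 8.45, 19.8 and 8.25 CPM in AAV8-GFP mice and 6.90, 7.81, 10.7 and 6.70 CPM in AAV8-AGXT mice. The groups overlapped, and mouse 314 was the highest of all. The log2 fold change was -0.52 ± 0.30 (SE, 95% interval -1.18 to 0.15, edgeR adjusted p = 0.298), and it was -0.15 without mouse 314 (adjusted p = 0.710).

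The thiolases cut the chain. Scp2 (ENSMUSG00000028603, chromosome 4, 108043839 to 108144998, minus strand) encodes both a thiolase for branched substrates and a lipid transfer protein from alternative starts, and the gene counts hold both. It was at 1993, 2152, 2467 and 2582 CPM in AAV8-GFP mice and at 3653, 3691, 2849 and 3581 CPM in AAV8-AGXT mice. The groups did not overlap, and the lowest AAV8-AGXT mouse was 316. The means were 2298 ± 273 and 3443 ± 399 CPM (SD, n = 4 each), with a log2 fold change of 0.58 ± 0.15 (SE, 95% interval 0.24 to 0.92, edgeR adjusted p = 0.0610).

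Acaa1a (ENSMUSG00000036138, chromosome 9, 119339676 to 119350299, plus strand) encodes one of the 3-ketoacyl-CoA thiolases of mouse peroxisomes. Its levels were 355, 327, 322 and 397 CPM in AAV8-GFP mice and 754, 415, 516 and 556 CPM in AAV8-AGXT mice, again without overlap. The means were 350 ± 34.1 and 560 ± 142 CPM (SD, n = 4 each) and the log2 fold change was 0.68 ± 0.18 (SE, 95% interval 0.28 to 1.08, edgeR adjusted p = 0.0640). The adjusted p was 0.0404 without mouse 309 and 0.0648 to 0.191 when any other mouse was left out. It was 0.0467 without a filter on low counts and 0.0775 with total counts as the scale.

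Acaa1b (ENSMUSG00000010651, chromosome 9, 119148023 to 119157093, minus strand) encodes the other such thiolase and was at 2033, 1601, 1695 and 2310 CPM in AAV8-GFP mice and 4586, 2245, 2584 and 2509 CPM in AAV8-AGXT mice. AAV8-GFP mouse 315 lay above AAV8-AGXT mouse 309, so the groups overlapped, and mouse 308 was far above its group. The means were 1910 ± 325 and 2981 ± 1080 CPM (SD, n = 4 each), with a log2 fold change of 0.64 ± 0.24 (SE, 95% interval 0.10 to 1.18, edgeR adjusted p = 0.132). Without mouse 308 the log2 fold change was 0.34 (adjusted p = 0.256).

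Acaa1a and Acaa1b are so alike that some read pairs may fit both genes. Pairs aligned at several places are not in the gene counts, so the levels of both genes may be too low. Summing the counts does not restore such pairs. Their coding sequences, 1275 bases each, were identical at 1231 positions (96.6%), and 27.0% of all 76-base stretches of the Acaa1a mRNA occurred in transcripts of Acaa1b. When both counts were summed, the AAV8-GFP mean was 2260 ± 358 CPM and the AAV8-AGXT mean 3541 ± 1216 CPM (SD, n = 4 each), with a log2 fold change of 0.65 ± 0.23 (SE, edgeR adjusted p = 0.119). Acaa1b made up 84.4 ± 1.07% of the sum in AAV8-GFP mice and 83.9 ± 1.69% in AAV8-AGXT mice (SD, n = 4 each). Acaa1a also shares 290 exon bases with genes on the opposite strand (Myd88 and Slc22a14), Acaa1b 224 with Dlec1, and Crot 166 with a gene on the opposite strand and 39 on its own. The strand option of the counting is not given in the sources used here, so reads in those bases may have been counted as ambiguous.

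Crot and Pex11a stand at the exit and at the growth of the organelle. Crot (ENSMUSG00000003623, chromosome 5, 8966033 to 8997324, minus strand) encodes carnitine octanoyltransferase, which makes the medium-chain carnitine esters that leave the peroxisome. It was at 933, 761, 969 and 786 CPM in AAV8-GFP mice and 962, 1076, 890 and 1020 CPM in AAV8-AGXT mice. The groups overlapped, and the log2 fold change of 0.19 ± 0.13 (SE, 95% interval -0.10 to 0.49, edgeR adjusted p = 0.384) turned to -0.04 with total counts as the scale.

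Pex11a (ENSMUSG00000030545, chromosome 7, 79735957 to 79743131, minus strand) encodes a membrane protein that elongates peroxisomes before they divide. It was at 328, 219, 190 and 230 CPM in AAV8-GFP mice and 562, 296, 332 and 306 CPM in AAV8-AGXT mice. AAV8-GFP mouse 303 lay above AAV8-AGXT mice 309 and 319, and mouse 308 stood alone at the top. The log2 fold change was 0.63 ± 0.24 (SE, 95% interval 0.09 to 1.16, edgeR adjusted p = 0.138), and it was 0.35 without mouse 308.

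**Figure D2:**
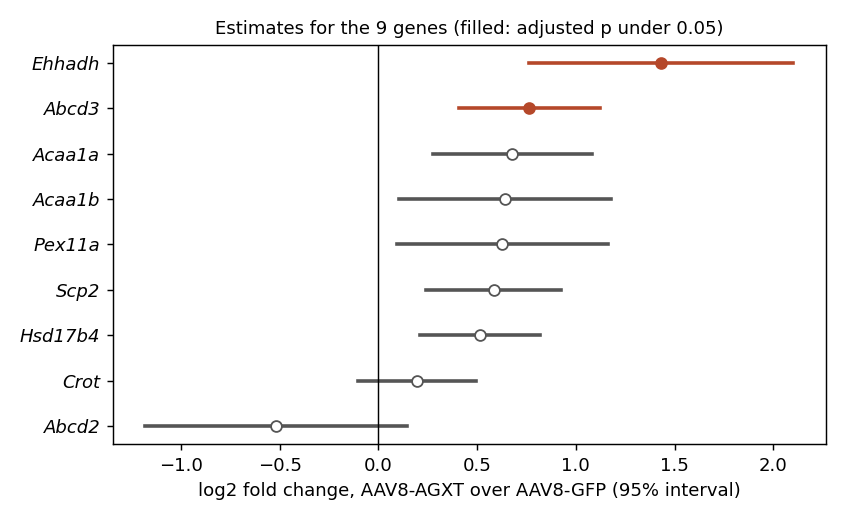
Log2 fold change of each of the 9 genes, AAV8-AGXT over AAV8-GFP, with edgeR's 95% interval as a line. Filled red points passed an adjusted p of 0.05 and open points did not. The estimates of 8 genes lie above 0, against 52.3% of all tested genes, with that of Crot falling below 0 under total-count and hepatocyte-marker scaling. Only the intervals of Crot and Abcd2 reach across 0, but the intervals are not adjusted for the number of genes tested. Of all 15248 tested genes, 3988 had an unadjusted edgeR p under 0.05.

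Mice did not rank alike in every gene. Within the AAV8-AGXT group, mouse 308 was the highest in 6 of the 9 genes, and it was the lowest in none. Mouse 309 was the highest in Scp2 and Crot and the lowest in 4 genes, among them Ehhadh and both Acaa1 genes. Among controls, mouse 303 was the highest in Ehhadh, Abcd3 and Pex11a and the lowest in Scp2. Without mouse 308, whose low share of pairs on genes is given above, the median log2 fold change of the 9 genes was 0.41. None of them then passed edgeR's test at 0.05. In that fit 5 genes had groups that did not overlap, but leaving out a mouse cannot by itself end such a separation. The part of that library in the results was not otherwise tested.

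Per kilobase of mRNA, using the longest protein-coding transcript of each gene, Acaa1b and Scp2 were the most abundant of the 9 mRNAs in both groups. In AAV8-GFP mice Acaa1b had a mean level of 1131 ± 192 CPM per kb and Scp2 871 ± 103, followed by Crot (288 ± 34.6), Ehhadh (259 ± 90.8), Acaa1a (199 ± 19.4), Hsd17b4 (193 ± 19.2), Pex11a (108 ± 26.6), Abcd3 (99.1 ± 10.4) and Abcd2 (2.09 ± 1.01, all SD, n = 4). Between neighbours in this order, the ranges over mice separated only Scp2 from Crot, Hsd17b4 from Pex11a, and Abcd3 from Abcd2. In AAV8-AGXT mice Ehhadh, at 700 ± 267 CPM per kb, stood above Crot, at 329 ± 26.6 (SD, n = 4 each), and these ranges did not overlap. With the length of all exons merged, Ehhadh came before Crot, and Hsd17b4 before Acaa1a, in AAV8-GFP mice as well, so the order of the middle genes depends on the length used.

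**Figure D3:**
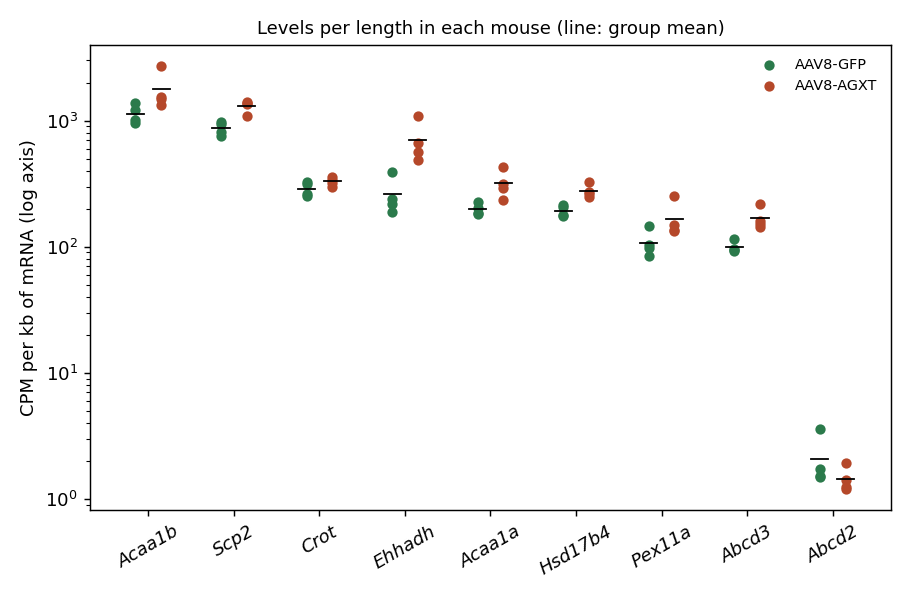
Level per kb of mRNA of the 9 genes in each mouse, on a log axis, ordered by the AAV8-GFP mean. Points are mice (green AAV8-GFP, red AAV8-AGXT) and lines are group means (n = 4). Acaa1b and Scp2 lie at the top in both groups, Ehhadh moves from 259 to 700 CPM per kb, and Abcd2 lies near 2.

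Other genes of peroxisomal lipid handling were read from 5 lists that hold 44 genes, of which 42 were tested. In edgeR 6 were called higher and none lower, 36 were not called, and the groups did not overlap in 17, all of them higher in AAV8-AGXT mice. These counts stand beside the 2.45% of all genes called higher and 8.93% without overlap, but the lists too were chosen with earlier results of these data known. The median log2 fold change of the 42 genes was 0.40, and 40 of them were above 0, against 52.3% of all tested genes.

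Of 10 further oxidation enzymes tested, Acad11 and Hacl1 were called higher, and the list's median log2 fold change was 0.46. Acad11, an acyl-CoA dehydrogenase for long chains, rose from 233 ± 19.1 to 398 ± 61.0 CPM (log2 fold change 0.77 ± 0.14 SE, edgeR adjusted p = 0.0298). Hacl1, the lyase of α-oxidation, rose from 95.5 ± 26.4 to 174 ± 32.1 CPM (0.87 ± 0.20 SE, edgeR adjusted p = 0.0458), with overlapping groups and with 1540 exon bases that it shares with another gene on its strand. Phyh, the phytanoyl-CoA hydroxylase that starts α-oxidation and the most abundant of the list by CPM, was at 1813 ± 196 and 2579 ± 314 CPM (0.51 ± 0.15 SE, edgeR adjusted p = 0.0767).

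None of the 6 tested genes for the entry of fatty acids was called, and their median log2 fold change was 0.29. Slc27a2, which activates very-long-chain fatty acids to CoA esters, was at 1693 ± 197 and 2607 ± 361 CPM without overlap (0.62 ± 0.15 SE, edgeR adjusted p = 0.0516). Among 12 tested genes for products and their exit, 3 were called higher, and the median was 0.67. Nudt7, a peroxisomal hydrolase of CoA and its esters, had the highest mean CPM of this list over all 8 mice because of its AAV8-AGXT level, and rose from 154 ± 49.8 to 438 ± 148 CPM (1.50 ± 0.29 SE, edgeR adjusted p = 0.0348). In AAV8-GFP mice the highest CPM of the list was that of Baat, which conjugates bile acids, at 207 ± 15.5. Pxmp2, a channel of the peroxisomal membrane, and Acot12, an acetyl-CoA thioesterase known from the cytosol, rose by log2 fold changes of 0.88 ± 0.12 and 0.82 ± 0.11 (SE, edgeR adjusted p = 0.0198 for both).

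The genes for growth and division other than Pex11a had estimates near 0. The 5 tested had log2 fold changes from 0.0024 to 0.13, and none was called. Fis1, which recruits the fission machinery, was at 95.7 ± 5.18 and 95.9 ± 17.6 CPM (95% interval of the log2 fold change -0.30 to 0.30). Of 9 genes for protein import and matrix upkeep, only Pex3, an anchor for the insertion of membrane proteins, was called, and it rose by a ratio of 1.41 to 28.3 ± 2.31 CPM (log2 fold change 0.50 ± 0.11 SE, edgeR adjusted p = 0.0425). Lonp2, the matrix protease and the most abundant of that list, was at 313 ± 22.5 and 397 ± 44.0 CPM (0.34 ± 0.12 SE, edgeR adjusted p = 0.117).

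**Figure D4:**
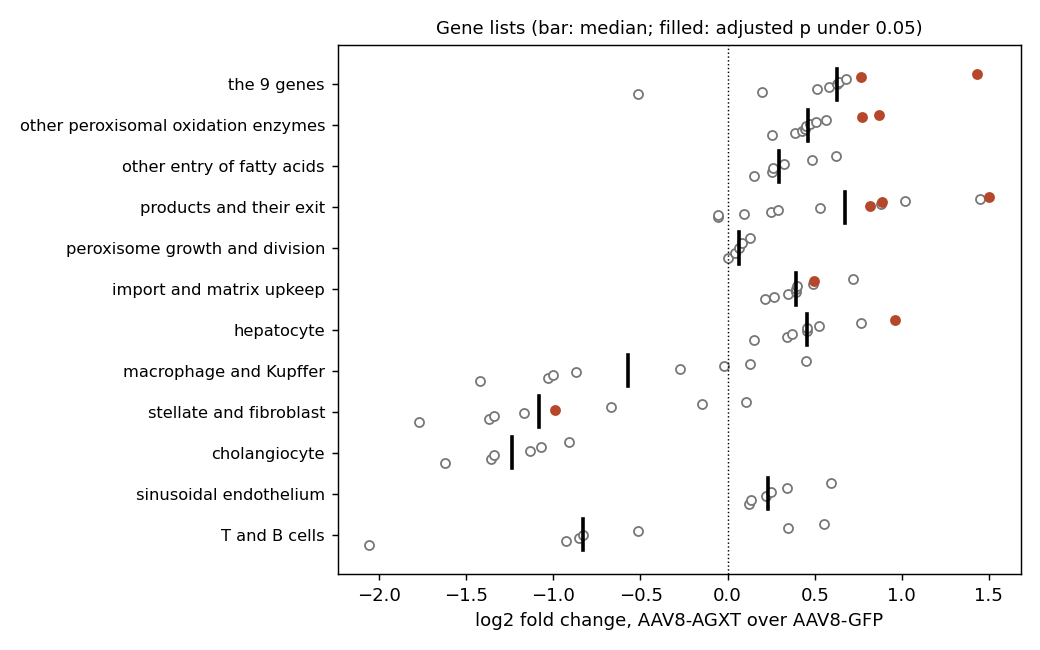
Log2 fold change, AAV8-AGXT over AAV8-GFP, of every tested gene in the 9 genes, the 5 other peroxisomal lists and 6 lists of cell type markers. Points are genes, filled red where the edgeR adjusted p was under 0.05, and bars are list medians. The median is 0.63 for the 9 genes, 0.46 for hepatocyte markers and -1.08 for stellate and fibroblast markers.

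Lists of cell type markers were read in the same fit, in which 1 marker was called higher and 1 lower. All 8 hepatocyte markers had log2 fold changes above 0, against 52.3% of all tested genes, with a median of 0.46. Their summed levels were 46509 to 56457 CPM in AAV8-GFP mice and 57241 to 79447 CPM in AAV8-AGXT mice. Cps1 of the urea cycle was the 1 marker of this list called higher (0.96 ± 0.16 SE, edgeR adjusted p = 0.0279). Of 8 stellate cell and fibroblast markers, 7 were below 0 and Acta2, the smooth muscle actin of activated stellate cells, was called lower (-0.99 ± 0.22 SE, edgeR adjusted p = 0.0427). The list's median was -1.08 and its sums were 531 to 962 and 208 to 593 CPM. The medians were -1.24 for 6 cholangiocyte markers (sums 225 to 676 and 74.3 to 274 CPM), -0.57 for 8 macrophage markers (625 to 1084 and 268 to 918 CPM), -0.83 for 7 T and B cell markers (11.8 to 18.2 and 5.52 to 12.7 CPM) and 0.23 for 6 endothelial markers (125 to 188 and 134 to 240 CPM), and none of these genes was called. The macrophage markers differed among themselves, with 2 above 0 (Clec4f 0.45 and Adgre1 0.13) and 6 below, from -0.02 in Cd5l to -1.42 in Trem2. Within the AAV8-AGXT group, mouse 308 had the highest hepatocyte and endothelial sums. It also had the lowest stellate, cholangiocyte, macrophage and T and B cell sums. In bulk liver, fewer cells of a type and less RNA per cell cannot be told apart.

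When CPM were scaled to the hepatocyte markers in place of TMM, a choice made after their estimates were seen to lie above 0, the median log2 fold change of all genes moved to -0.48 and that of the 9 genes to 0.09, or 0.57 above the median of all genes. Ehhadh kept its call (0.88, edgeR adjusted p = 0.0329), Abcd3 lost it (0.24, adjusted p = 0.257), Crot turned to -0.31, and Abcd2 was called lower (-1.02, adjusted p = 0.0492). On that scale 31.7% of all tested genes were called lower and 0.643% higher, so a single lower call among the 9 genes lies below the background. No gene of the 9 had separate groups on that scale, but the share of all tested genes with separate groups was not counted there.

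The profile over the 8 mice was most like that of Ehhadh in Cyp4a14, a fatty acid ω-hydroxylase, with a root mean square difference of 0.10 SD units of standardized log2 CPM. Next came Cisd1, an iron-sulfur protein of the outer mitochondrial membrane (0.13), Retsat, retinol saturase (0.14), Pnpla2, adipose triglyceride lipase (0.14), and Cmbl, a hydrolase (0.15). Their log2 fold changes were 2.24, 0.50, 1.39, 0.66 and 0.74, with edgeR adjusted p of 0.0335, 0.0617, 0.0344, 0.0484 and 0.0529. Among the 9 genes, Abcd3 was the closest to Ehhadh (0.23, place 24 of all tested genes), followed by Pex11a (0.30, place 85), and Crot (0.95) and Abcd2 (1.65) were the farthest. Because these profiles include the difference between the groups, likeness over 8 mice is a description only.

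**Figure D5:**
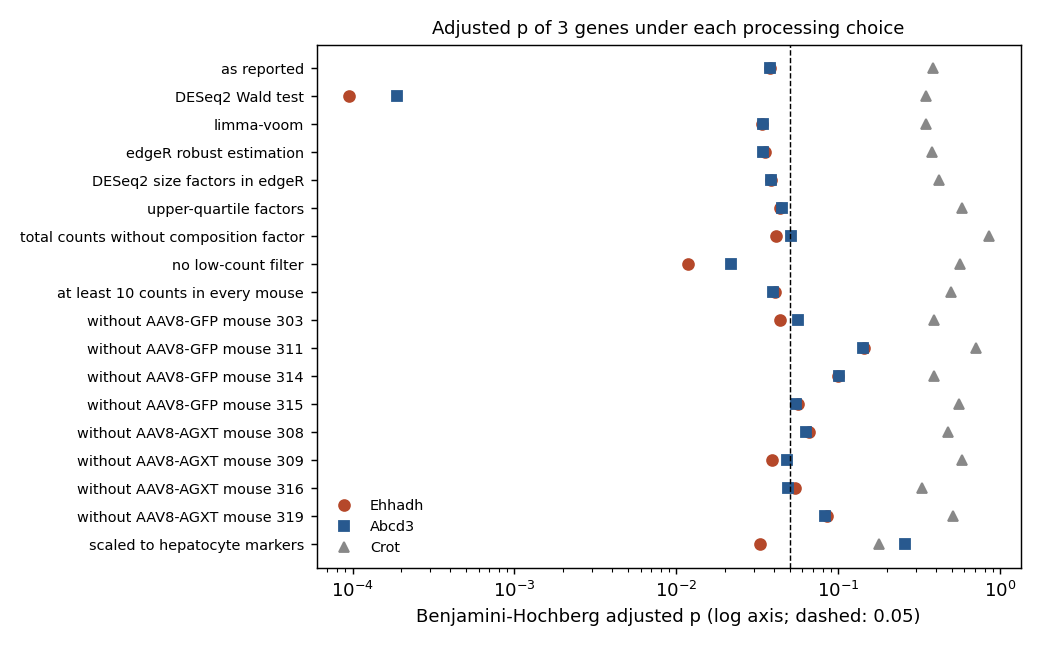
Adjusted p (log axis, dashed line at 0.05) of Ehhadh, Abcd3 and Crot in the reported fit and under each other processing choice, with 1 row per choice. Ehhadh and Abcd3 lie left of the line in the reported fit and lie right of it in 6 of the 8 fits that leave out a mouse. Crot, whose direction turns under total-count and hepatocyte-marker scaling, lies right of it throughout.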

How the data were processed

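Liver RNA of 8 mice was sequenced by the authors as stranded, paired-end mRNA libraries. The deposited values are raw read-pair counts per gene. According to the methods and processing notes, the authors used Trimmomatic 0.35 for trimming, HISAT2 2.1.0.13 for mapping to GRCm38, and HTSeq with Ensembl genes for counting. Pairs aligned at several places, 17.4% to 23.4% of the tallies, are not in the gene counts, which bears on Acaa1a and Acaa1b. Tallies that name no gene were left out.

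Mice were grouped by the virus in the labels, and none was left out. The labels give no batch. Counts were analysed in R 4.3.3 with edgeR 4.0.16 (filterByExpr, TMM, quasi-likelihood test, treatment as the only term), with Benjamini-Hochberg adjustment over the 15248 genes tested and a call at 0.05. Fold changes use a prior count of 0.125. The code was tested on simulated data. Alternatives were DESeq2 1.42.0, voom in limma 3.58.1, robust estimation, 4 other scalings, 2 other filters, and each mouse left out. Coordinates and transcripts are from GENCODE M21 (GRCm38), and promoters from RefSeq (GRCm38.p6).

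All 9 genes are described. Of the other peroxisomal genes, those that were called and the most abundant of each list are named, with the 5 profiles most like Ehhadh. The members and lists were chosen with earlier results of these data known. Some genes of the pathway are not reported here.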

Additional observations from a re-analysis of the deposited data

Results flagged for a closer look

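In 5 of the 18 groups of 4 mice (9 genes in each treatment), 1 mouse stood apart from the other 3 by Dixon's test at the 95% level, which chance does in about 1 in 20 groups. Mouse 308 stood above the other AAV8-AGXT mice in Acaa1b, at 4586 CPM against 2245 to 2584 CPM, and in Pex11a, at 562 CPM against 296 to 332 CPM. AAV8-AGXT mouse 316 stood below in Scp2, at 2849 CPM against 3581 to 3691 CPM. Among AAV8-GFP mice, mouse 314 stood above the rest in Abcd2, at 19.8 CPM against 8.25 to 9.64 CPM, and mouse 303 in Abcd3, at 399 CPM against 321 to 335 CPM. The cause of these values was not tested.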

How the results depend on the processing

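The number of the 9 genes called higher was 2 in the reported fit, in which 374 genes in all were called higher. It was 5 with DESeq2 (1077 in all) and 3 without a filter on low counts (415 of 28338). It was 1 with total counts as the scale (144 in all), 1 with the hepatocyte-marker scale (98 in all), and 0 to 3 when a mouse was left out. It was 0 without mouse 311, 314, 319, 308 or 315, with 2, 11, 12, 86 and 304 genes called higher in all, and 1 without 303 or 316, with 114 and 226. The number called lower was 0 except on the hepatocyte-marker scale, where it was 1, beside 4838 of all 15248 genes (290 in the reported fit). Of the other peroxisomal genes, 6 were called higher in the reported fit (374 in all) and 18 with DESeq2 (1077 in all). On the hepatocyte-marker scale 1 was called higher (98 in all) and 3 lower, a smaller share than the 31.7% of all genes. When a mouse was left out, 0 to 8 were called higher (0 without 311, 314 or 319, and 3 without 303 or 308). The median log2 fold change of the 9 genes lay between 0.37 and 0.70 under all settings but the hepatocyte-marker scale, which gave 0.087. That scale left 0 of the 9 genes with separate groups, against 4 to 6 elsewhere. The share of all genes with separate groups was counted in the reported fit only, and leaving out a mouse cannot by itself end a separation. Total counts as the scale moved the median of all genes to -0.22, and the 9 genes then lay 0.59 above it. Crot turned to -0.043 with total counts and to -0.31 on the hepatocyte-marker scale, and no other of the 9 genes changed direction under any setting run. The cause of these changes was not tested. No paired analysis was possible because the animal numbers are not shared between the groups. With 4 mice a group, the 95% intervals of the genes that were not called still hold fold changes of the size seen in Abcd3 for Acaa1a, Acaa1b, Hsd17b4, Scp2 and Pex11a.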
